A study of Homo sapiens with 34 samples.

Results

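Acetylated chromatin lying inside genes but carrying no detectable RNA polymerase II (Pol II) was described in DLD1 (DNTCF) cells. A region qualified when it was under 6 kb wide in the uninduced H3K27ac list, overlapped a region of the induced list, lay wholly within a protein-coding gene but over 1 kb from any end of such a gene, and overlapped no uninduced Pol II region. Of 78005 uninduced H3K27ac regions, 66669 were shared with the induced list, 64166 of these were under 6 kb, 27713 of these lay inside a gene, 26081 of these were away from gene ends, and 18853 (24.2% of the list) also lacked Pol II. The set was thus chosen by measured peak calls, namely H3K27ac in both lists and Pol II in the uninduced one, so regions whose H3K27ac call was lost after induction are not in it, and their overlap with H3K27ac and uninduced Pol II is not a finding. These 18853 are called the Pol II-negative body regions here, a name for the absence of a Pol II call and not for a measured lack of transcription.

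The series holds 34 samples of colorectal cancer lines, of which 8 ChIP samples and 2 inputs, all of DLD1, bear on these regions. DLD1 comes from a colorectal adenocarcinoma, and the line used carries a Tet-inducible transgene for dominant negative TCF7L2, so that both conditions hold the transgene and only the induced one received doxycycline. Uninduced cells were compared with cells given 1 µg/mL doxycycline for 24 h, and no DLD1 cells without the transgene were among the samples analysed, so the drug and the transgene product cannot be told apart. For each antibody and condition 2 samples share 1 peak list, so 4 lists were compared, replicate error could not be measured and no test was run. Wilson 95% intervals stand beside shares and cover counting error only. Uninduced H3K27ac lay within 1 kb of an end in 7 of 7 epithelial marker genes (KRT8, KRT18, KRT19, CDH1, EPCAM, VIL1 and CDX2). So it did in 13102 of all 19974 protein-coding genes and 20 of 20 genes on a housekeeping list. The counts were 7 of 20 immune, stromal and endothelial markers and 9 of 24 liver, muscle and neuron markers. With the share over all genes this high, the counts do not establish the cell label.

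Acetylation of lysine 27 on histone H3 is laid down by the co-activators CBP and p300 and marks active promoters and enhancers. Many enhancers lie within introns, of their target gene or of an unrelated one, and active enhancers often recruit some Pol II of their own. In intestinal cells TCF7L2 binds enhancers with β-catenin when Wnt signalling is on, and the dominant negative form, which cannot recruit β-catenin, occupies such sites without activating them.

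A small group of Pol II-negative body regions covered a start site that RefSeq places inside the host gene. Of all RefSeq start windows (250 bases before a start and 50 after it, GRCh38.p14), 237 overlapped 217 Pol II-negative body regions (1.15%). Protein-coding genes gave 123 of these windows, all of them starts of the host gene itself, and lncRNA genes gave 114. After induction 5 of the 217 regions (2.30%, interval 0.988 to 5.28%) overlapped a Pol II region, a share near the 1.67% of all Pol II-negative body regions. The 250 bases before the start, 5′ to 3′, are shown for 5 host genes, chosen after their values were seen. PKIB, WWP2, SMAD3 and ARHGDIB hold strong, changed or Pol II-gaining members of this group. The TBXAS1 region is none of these by the cutoffs used below, and its stretch is the only one shown with TCF letters. Capitals mark the letters TGAGTCA or TGACTCA, the core site of the AP-1 factors, and CTTTGAT or CTTTGAA, the core site of TCF and LEF factors, on either strand.
PKIB: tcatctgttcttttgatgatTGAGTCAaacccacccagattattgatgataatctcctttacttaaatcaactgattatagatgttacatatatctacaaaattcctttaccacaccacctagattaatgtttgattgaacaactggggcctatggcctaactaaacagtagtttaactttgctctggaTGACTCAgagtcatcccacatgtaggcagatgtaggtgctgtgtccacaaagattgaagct
WWP2: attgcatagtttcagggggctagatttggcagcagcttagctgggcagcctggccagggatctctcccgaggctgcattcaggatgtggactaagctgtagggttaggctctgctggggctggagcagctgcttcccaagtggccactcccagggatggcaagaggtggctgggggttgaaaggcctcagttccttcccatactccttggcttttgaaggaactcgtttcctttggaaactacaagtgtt
SMAD3: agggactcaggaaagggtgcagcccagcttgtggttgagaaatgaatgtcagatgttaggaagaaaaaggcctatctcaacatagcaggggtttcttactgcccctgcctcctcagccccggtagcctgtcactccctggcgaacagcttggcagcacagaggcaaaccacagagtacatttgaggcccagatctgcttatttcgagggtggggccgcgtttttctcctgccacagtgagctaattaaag
ARHGDIB: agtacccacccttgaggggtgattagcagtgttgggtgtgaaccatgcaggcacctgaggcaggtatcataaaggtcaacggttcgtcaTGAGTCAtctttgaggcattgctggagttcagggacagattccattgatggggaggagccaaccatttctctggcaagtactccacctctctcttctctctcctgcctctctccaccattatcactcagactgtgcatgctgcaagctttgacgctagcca
TBXAS1: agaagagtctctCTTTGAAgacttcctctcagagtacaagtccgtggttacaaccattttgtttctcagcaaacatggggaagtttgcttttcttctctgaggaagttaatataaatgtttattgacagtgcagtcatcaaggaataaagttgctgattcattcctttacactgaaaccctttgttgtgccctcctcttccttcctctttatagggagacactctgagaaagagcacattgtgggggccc
The PKIB stretch (chr6:122652479-122652728, plus strand) lies before an internal start of the gene for a protein kinase A inhibitor and holds 2 AP-1 matches. Its H3K27ac region had a fold enrichment of 25.2 uninduced and 28.4 induced, and the region overlapped Pol II in neither list. The WWP2 stretch (chr16:69838487-69838736, plus strand), in a gene for a HECT ubiquitin ligase, holds neither set of letters, and its region, at folds of 16.3 and 6.97, was placed 32.8 percentile points lower among all shared regions after induction. SMAD3, a transducer of TGF-β signals, also holds neither (chr15:67098429-67098678, plus strand). Its region had folds of 21.2 and 28.6 and overlapped an induced Pol II region with a −log10 q of 1.43. In ARHGDIB the stretch (chr12:14951107-14951356, minus strand) holds 1 AP-1 match. Its region, at folds of 11.8 and 14.1, overlapped an induced Pol II region with a −log10 q of 9.67. The TBXAS1 stretch (chr7:139829014-139829263, plus strand), in the thromboxane synthase gene, holds 1 TCF match, and its region had folds of 6.59 and 11.2.

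AP-1 letters were more frequent in these windows than in start windows with Pol II or without H3K27ac, and the interval overlapped that of windows in intergenic regions without Pol II. Of 132 windows lying wholly within a Pol II-negative body region, 31 (23.5%, interval 17.1 to 31.4%) held TGAGTCA or TGACTCA. These are reverse complements of each other, so that each site was counted once within a window. The share was 16.9% (interval 11.8 to 23.6%) of 154 windows in shared intergenic regions without Pol II, 6.28% of 1386 windows in shared intragenic regions with Pol II, 5.54% of 5122 windows inside genes without H3K27ac in either list, and 4.93% of all 34789 windows of the same length. For CTTTGAT or CTTTGAA on either strand, the shares in the same order were 12.9% (17 windows, interval 8.199 to 19.7%), 14.9%, 5.05%, 9.06% and 6.89%. The interval of the TCF share includes the share in intergenic regions without Pol II and that in windows without H3K27ac. The median GC content was 50%, 46.8%, 65%, 49% and 58.7% in the same order. Whether GC content bears on these shares was not tested. CAAAGTC, part of the HNF4A motif, whose letters CAAAG are shared with the other strand of the TCF letters, was found in 3.79% of the Pol II-negative body windows and 3.37% of all windows. TTTATTG or TTTATGG, the CDX letters, were found in 7.58% and 6.37%. Start windows can overlap each other, so a site can lie in several, and the intervals treat windows as independent. A match describes letters in the window and not a bound site.

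**Figure D1:**
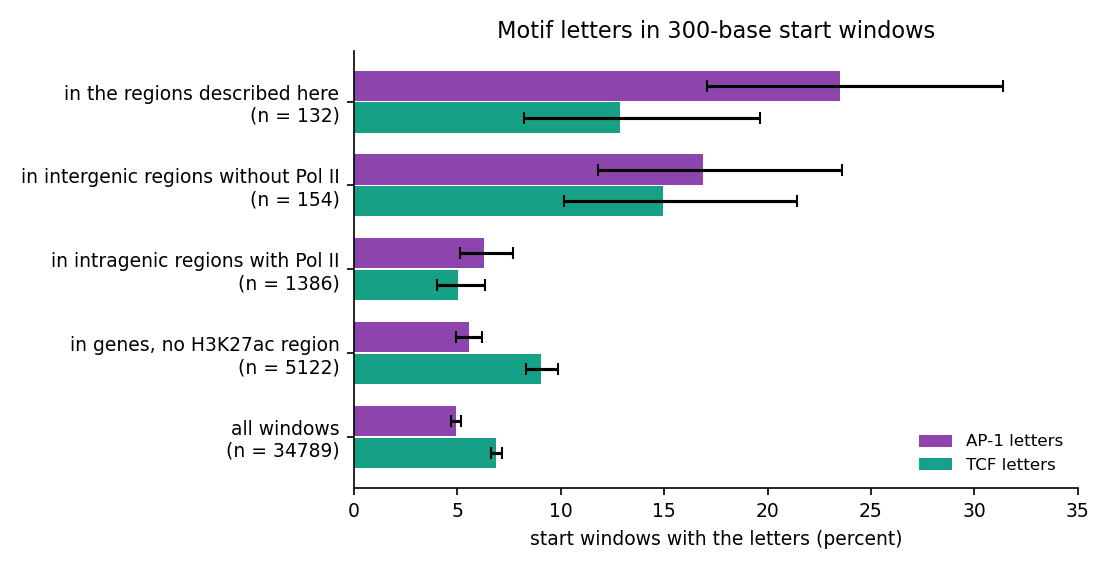
Percent of 300-base RefSeq start windows that hold AP-1 letters (TGAGTCA or TGACTCA) or TCF letters (CTTTGAT or CTTTGAA), on either strand, by where the window lies; bars are shares and error bars Wilson 95% intervals. The AP-1 share was 23.5% in the Pol II-negative body windows and 4.93% over all windows.

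In addition, 15 Pol II-negative body regions overlapped 16 microRNA hairpins of RefSeq. The mature sequences of 4 are shown because their regions were among the strongest of the 15 or sit in a gene of microRNA processing, with the seed (bases 2 to 8) in capitals.
hsa-miR-1249-3p: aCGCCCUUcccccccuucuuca
hsa-miR-7973: uGUGACCCuagaauaauuac
hsa-miR-128-3p: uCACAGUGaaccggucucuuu
hsa-miR-3173-3p: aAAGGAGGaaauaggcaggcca
No seed is shared among these 4. The region over MIR1249, in KIAA0930, had the highest fold of the 15, at 21.7 uninduced and 24.4 induced, and it overlapped Pol II after induction, as none of the other 14 did. The region over the overlapping hairpins MIR7973-1 and MIR7973-2, in the aromatase gene CYP19A1, stood at 20.5 and 14.3. MIR128-1, in R3HDM1, lay in a region with folds of 15.1 and 9.40. The region over MIR3173 lay in DICER1, the gene for the enzyme that cuts microRNA precursors, and had folds of 13.9 in both lists. Whether these microRNAs were made was not measured.

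Most Pol II-negative body regions were small and weak. Their median width was 928 bp, against 2136 bp for the 7228 shared intragenic regions that did overlap Pol II and 826 bp for the 16489 shared intergenic regions without Pol II. The median fold enrichment, taking for each region the highest of the authors' values over its summits, was 4.99 uninduced and 5.43 induced. It was 14.0 and 14.4 in intragenic regions with Pol II, and 4.74 and 5.25 in intergenic regions without Pol II. A single summit was listed for 51.3% of Pol II-negative body regions, for 23.3% of intragenic regions with Pol II and for 56.5% of intergenic regions without it. Over all shared regions under 6 kb the median was 7.55 and then 8.19, so that folds in the induced list were higher in general. In width, strength and summit number the regions lay near the intergenic regions that lack Pol II. Their median distance to the nearest uninduced Pol II region was 14622 bp, and 60.1% were over 10 kb from one. At the borders of the rule, the widest was 5996 bp and the narrowest region left out for width was 6010 bp, the nearest to a gene end was 1001 bp away and the nearest to Pol II 10 bp.

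Lack of Pol II was less frequent in stronger regions, which were also wider. All 64166 shared regions under 6 kb were ranked by fold in each list, and the percentile of a region in its list is called its place. Of intragenic regions away from gene ends at places under 25, 91.1% lacked Pol II. The share was 86.8% between places 25 and 50, 64.3% between 50 and 75, 28.1% between 75 and 90, and 7.15% (interval 5.77 to 8.82%) above 90, where 79 of 1105 intragenic regions lacked Pol II. The median width of Pol II-negative body regions was 484 bp under 25, 2041 bp between 50 and 75 and 4090 bp above 90. A wider region has more bases that can overlap a Pol II region, and strength was not separated from width.

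The strongest Pol II-negative body regions were as enriched as many regions with Pol II. FOCAD, which encodes focadhesin, held the one with the highest −log10 q, at chr9:20724592-20730328, with a fold of 33.4 uninduced and 26.1 induced. Its nearest uninduced Pol II region was 24978 bp away. HAO2, a peroxisomal hydroxy acid oxidase, held chr1:119372320-119375340 at 32.9 and 32.1, and this region overlapped Pol II after induction, with a −log10 q of 5.21. In KIT, the receptor tyrosine kinase for stem cell factor, chr4:54707231-54713004 had folds of 31.1 and 25.3. The ubiquitin ligase gene COP1 held a region at 27.2 and 21.1, UGDH, which makes UDP-glucuronic acid, one at 21.9 and 24.0, and the tubulin modifier TTLL5 one at 28.3 and 24.8. THADA held one at 26.4 and 19.8 and SLMAP one at 22.2 and 17.1. Of these 8, the regions in HAO2 and UGDH overlapped induced Pol II and the other 6 did not. The TTLL5 region lay 325 bp from uninduced Pol II, while the other 7 lay over 10 kb from it.

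After induction, and without regard to uninduced place, Pol II-negative body regions moved within the ranking more often than intragenic regions with Pol II. A region is said to have fallen or risen when its place was lower or higher by over 25 percentile points in the induced list. By this count 1277 Pol II-negative body regions (6.77%, interval 6.42 to 7.14%) fell, against a background of 4.88% of all shared regions, and 1465 (7.77%) rose, against a background of 5.55%. In intragenic regions with Pol II 3.10% fell and 2.23% rose, and in intergenic regions without Pol II 7.01% fell and 8.81% rose. A region within 25 points of the top of the ranking cannot rise by this count. One within 25 points of the bottom cannot fall. The median uninduced place was 33.9 in Pol II-negative body regions and 71.2 in intragenic regions with Pol II. These shares are not matched for place, so the difference in rises cannot be separated from the starting place here. Many of the rises were small uninduced regions overlapped by a much wider induced region. Of 1006 Pol II-negative body regions that rose to a place of 50 or more, 888 were paired with an induced region at least 2 times as wide, against 13.1% of all Pol II-negative body regions, and 189 had no induced summit within them. When only induced summits inside the uninduced region were used, a measure added after the data were seen, 18205 Pol II-negative body regions could be compared. Then 1042 (5.72%) fell, against a background of 4.02%, and 725 (3.98%) rose, against a background of 3.06%. Values per region below use this measure unless the paired region is named, and a region that lacks such a summit is left out of them.

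**Figure D2:**
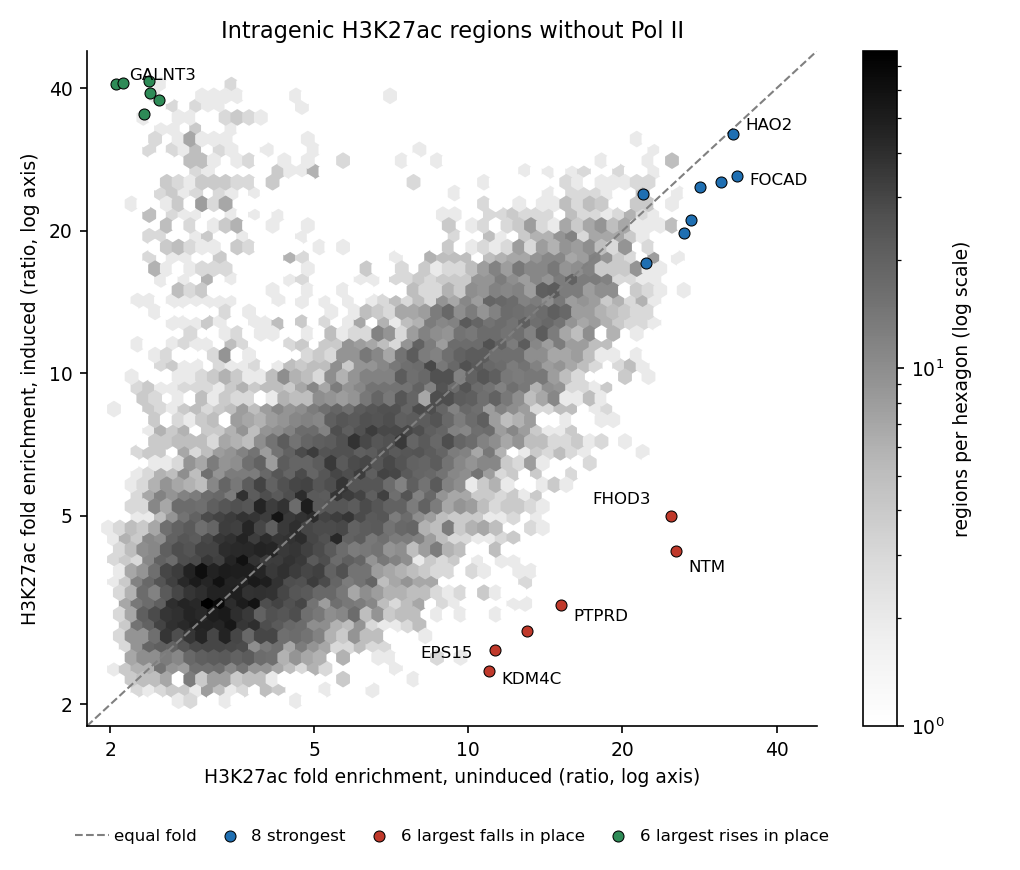
H3K27ac fold enrichment of all 18853 Pol II-negative body regions in the uninduced list (x axis) and of the paired induced region (y axis), both ratios on log axes, with shading for the number of regions per hexagon on a log scale and a dashed line at equal folds. The 6 largest falls lie far below the line, such as NTM at 25.4 and 4.22, and the 6 largest rises are small regions overlapped by a wide induced region.

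Falls also differed between regions with and without Pol II within bands of like uninduced strength, while rises did not show the same order in every band. Between places 50 and 75, 11.1% of Pol II-negative body regions fell (interval 10.2 to 12.1%), against 3.35% of intragenic regions with Pol II (2.71 to 4.13%) and 13.5% of intergenic regions without Pol II (12.4 to 14.6%). Median widths of intragenic regions without and with Pol II were 2041 and 1989.5 bp in that band. They were 3209.5 and 3018 bp from 75 to 90, and 4090 and 3557 bp above 90. Whether width bears on the falls was not tested. From 75 to 90 the shares were 13.1%, 3.27% and 15.1%, and above 90 they were 17.7%, 2.53% and 27.03%, the first and last of these resting on 79 and 37 regions. Over all regions of place 50 or more, 615 of 5336 Pol II-negative body regions (11.5%, interval 10.7 to 12.4%) fell, against a background of 5.23%. By summits inside, the shares of Pol II-negative body regions and of intragenic regions with Pol II were 9.20% and 2.46% between 50 and 75, and 10.5% and 2.05% between 75 and 90. Rises by the same measure were 8.65% and 5.13% at places under 25, 2.43% and 2.76% between 25 and 50, and 0.292% and 0.686% between 50 and 75, with the lower share in regions without Pol II in the last 2 of these bands. For falls by paired region, the intervals of the Pol II-negative body and Pol II-bearing regions did not overlap in any band from 25 upward. Depth, input and the caller's background enter the fold in both lists, and whether the spread between replicates differs with Pol II could not be measured with 1 list per condition.

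**Figure D3:**
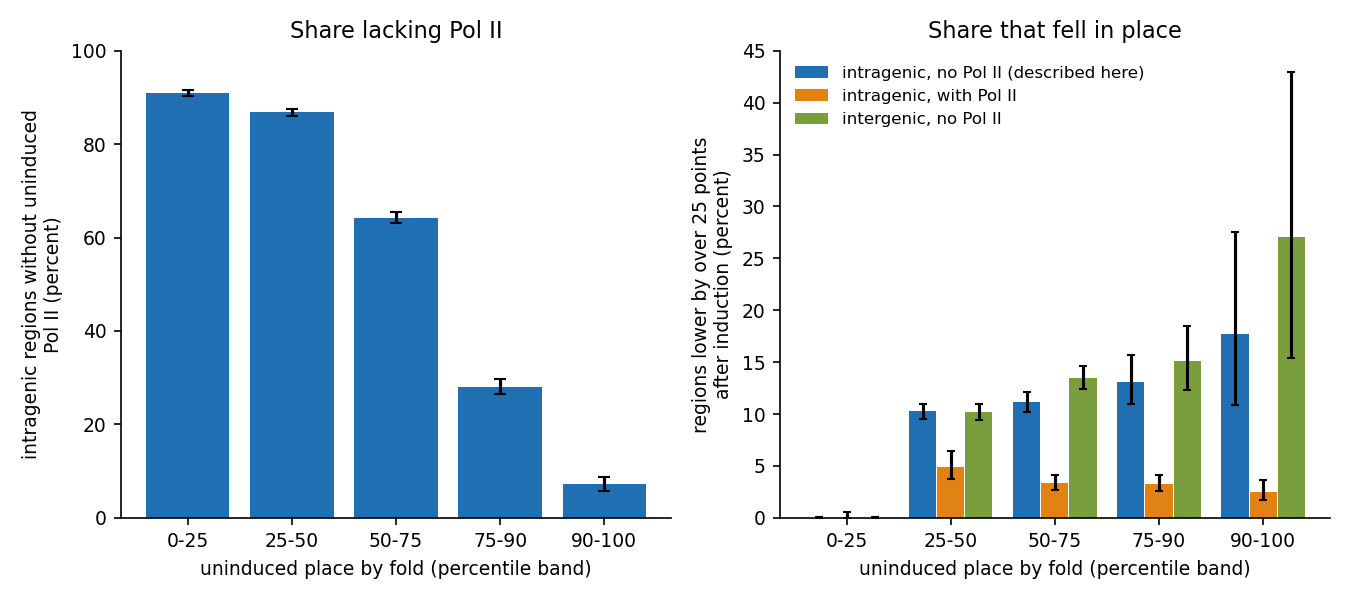
Left, percent of shared intragenic regions away from gene ends that lack uninduced Pol II, by band of uninduced place. Right, percent of regions in each class whose place was lower by over 25 points after induction; error bars are Wilson 95% intervals, and between places 75 and 90 the shares were 13.1% (intragenic without Pol II), 3.27% (intragenic with Pol II) and 15.1% (intergenic without Pol II).

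The largest falls were found in genes of several kinds. In NTM, which encodes the cell adhesion protein neurotrimin, chr11:131518938-131522249 went from a fold of 25.4 to 4.22. It was 3312 bp wide and overlapped 2 induced regions, of which the paired one, with the higher fold, was 748 bp wide. FHOD3, a formin that assembles actin, held chr18:36494176-36497614 at 24.9 and 4.99. The receptor phosphatase gene PTPRD held a region at 15.2 and 3.25, and ABCC9, the regulatory subunit of a potassium channel, one at 13.0 and 2.86. KDM4C, a histone H3 lysine 9 demethylase, held one at 10.97 and 2.35, and EPS15, an endocytic adaptor, one at 11.3 and 2.61. All 6 lay over 10 kb from uninduced Pol II, and none overlapped Pol II after induction. Over the 615 regions of place 50 or more that fell by paired region, which lay in 517 genes, the median fold was 10.7 and then 4.70. Their median width was 1846 bp, and that of the paired induced regions 862 bp. A paired width leaves out any other induced region that overlaps. Several induced regions overlapped 11.6% of all Pol II-negative body regions, against 9.45% of all shared regions under 6 kb.

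The largest rises by paired region were in GALNT3, CANX, BMF, CALM3, EHD2 and RHBDF1, and all 6 were small regions at folds of 2.05 to 2.49 that a wide induced region touched. In GALNT3, an enzyme that starts mucin-type glycans, the paired induced region had a fold of 40.8, but the induced summit inside the uninduced region had one of 3.64. CANX, CALM3 and RHBDF1 had no induced summit inside, and those of BMF and EHD2 were at 3.72 and 4.24. None of the 3 with a summit inside rose by that measure. By that measure the largest rises to a place of 50 or more included SHROOM3, an apical constriction protein, from 2.29 to 10.4, and WDR72, a protein of vesicle traffic, from 2.67 to 10.4. FARP1 went from 2.38 to 9.35, and PPARD, a nuclear receptor active in colon epithelium, from 2.14 to 9.08. Claudin gene CLDN14 went from 2.04 to 8.65.

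Pol II-negative body regions were found in 5814 of 19974 protein-coding genes, which is the background share of 29.1%, and gathered in long ones. The median host was 78.4 kb long and genes without such a region 14.5 kb. A single region was held by 2302 hosts, while 371 hosts with 10 or more held 28.8% of all. PDE4D, a phosphodiesterase that degrades cyclic AMP, held 44. PARD3, the polarity scaffold, held 40, ANGPT1, a secreted ligand of the TIE2 receptor, 36, and CFTR, the chloride channel of secretory epithelia, 34. Relative to length, TKT, an enzyme of the pentose phosphate pathway, was the most densely marked host of those with 5 or more, at 22.4 per 100 kb, and CFTR had 18.02 per 100 kb. Groups of 3 or more regions within 12500 bp of each other numbered 1918 and held 41.8% of the regions. The longest group, of 24 regions over 107.8 kb, was in PDE4D, and MACF1, a cytoskeletal linker, held one of 19. Within genes of at least 10 kb and known strand, 21.5%, 23.4%, 20.2%, 19.4% and 15.5% of 15108 regions lay in 5 equal parts of the gene, from the 5′ end to the 3′ end, against 20.5%, 22.6%, 20.3%, 18.9% and 17.6% for intragenic regions with Pol II.

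The hosts themselves carried Pol II at their ends more often than other genes of like length. An uninduced Pol II region lay within 1 kb of an end in 76.0% of the 5814 hosts, and an induced one in 74.2%. Below 20 kb the uninduced share was 76.3% of hosts and 58.4% of other genes. From 20 to 50 kb, where the shares were closest, it was 80.9% and 71.9%. From 50 to 100 kb it was 81.1% (interval 79.0 to 83.0%) and 65.4%, from 100 to 250 kb 75.7% and 50.4%, and above 250 kb 56.7% (53.1 to 60.2%) and 22.4% (17.6 to 28.1%). Another 541 hosts (9.31%) had no Pol II region within the gene or 1 kb of it in either list. The same share over all protein-coding genes is not given here, so this count is not read as a result about hosts. Among the 541 were IL1RAPL1, a synaptic receptor of the interleukin-1 family, with 11 Pol II-negative body regions, and CALN1 and COL26A1 with 10 each. TRIM71, an RNA-binding ubiquitin ligase of early development, held 9 in 79.8 kb.

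**Figure D4:**
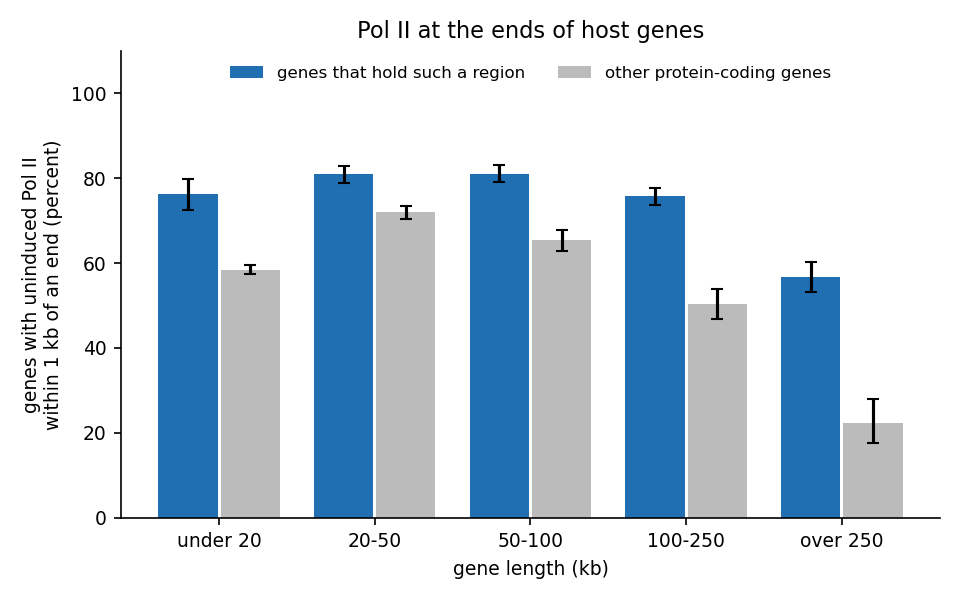
Percent of protein-coding genes with an uninduced Pol II region within 1 kb of an end, by gene length, for the 5814 genes that hold a Pol II-negative body region and for the other genes; error bars are Wilson 95% intervals. Hosts were higher in each length class, by the most above 250 kb, at 56.7% against 22.4%.

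In some hosts nearly all regions had a lower fold after induction, or nearly all a higher one. Over all hosts the split was even, with 48.4% of the 18205 comparable regions at a lower fold and 51.6% at a higher one. Lower and higher compare folds, not places, here and for the genes below, and folds in the induced list were higher in general. Of 1163 hosts with 5 or more comparable regions, 30 had all of them lower and 49 all higher, some of these being readthrough genes that share their regions with a neighbour. With an even split, some hosts with few regions would lie all one way, and how many was not worked out. These counts are therefore not read as a result about hosts. The genes below were chosen after their values were seen. PARD3 had a lower fold at 29 of 37 regions, and 9 fell while 1 rose. Its uninduced folds ran from 2.06 to 22.3 with a median of 8.87 over all 40 regions, and its induced ones from 3.14 to 14.8 with a median of 6.27. The strongest, chr10:34794999-34797346, went from 22.3 to 8.69, and its neighbour chr10:34792474-34794704 from 18.1 to 4.14. PATJ, a scaffold of the Crumbs polarity complex at tight junctions, was lower at 10 of 10 regions, with a median fold of 9.15 and then 4.70, and 5 fell. None of the 10 overlapped Pol II after induction, though Pol II stood at an end of the gene in both.

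Other hosts with one direction had different roles. LRRC4C, an adhesion protein of synapses, was lower at 9 of 9 regions (median 7.50, then 3.89), and 5 fell. CACNA1D, a pore subunit of L-type calcium channels, was lower at 7 of 7, from a median of 7.08 to 4.36, with 4 that fell. RAPGEF4, an exchange factor activated by cyclic AMP, was lower at 11 of 11, though none of these fell by over 25 points. CCBE1, a secreted factor of lymphatic growth, and MMS22L, a repair factor at stalled replication forks, were lower at 5 of 5, and 4 fell in each. In the other direction RALGPS1, an exchange factor of Ral GTPases, was higher at 13 of 13 regions with 1 rise, and RAB27B, a GTPase of secretory vesicles, at 9 of 9 with 3 rises. The strongest region of RAB27B went from 14.3 to 23.3. TP63, the p53 relative of stratified epithelia, was higher at 8 of 8 with 2 rises and had no Pol II region in or around it in either list. TMPRSS3, a membrane serine protease, was higher at 4 of 4 with 4 rises, the strongest also overlapping Pol II after induction, its folds running from 2.63 to 5.93 over 5 uninduced regions and then from 5.69 to 15.9 over the 4 with an induced summit. In CFTR 23 of 34 regions were higher, but the strongest, chr7:117615479-117618929, went from 23.7 to 16.8.

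**Figure D5:**
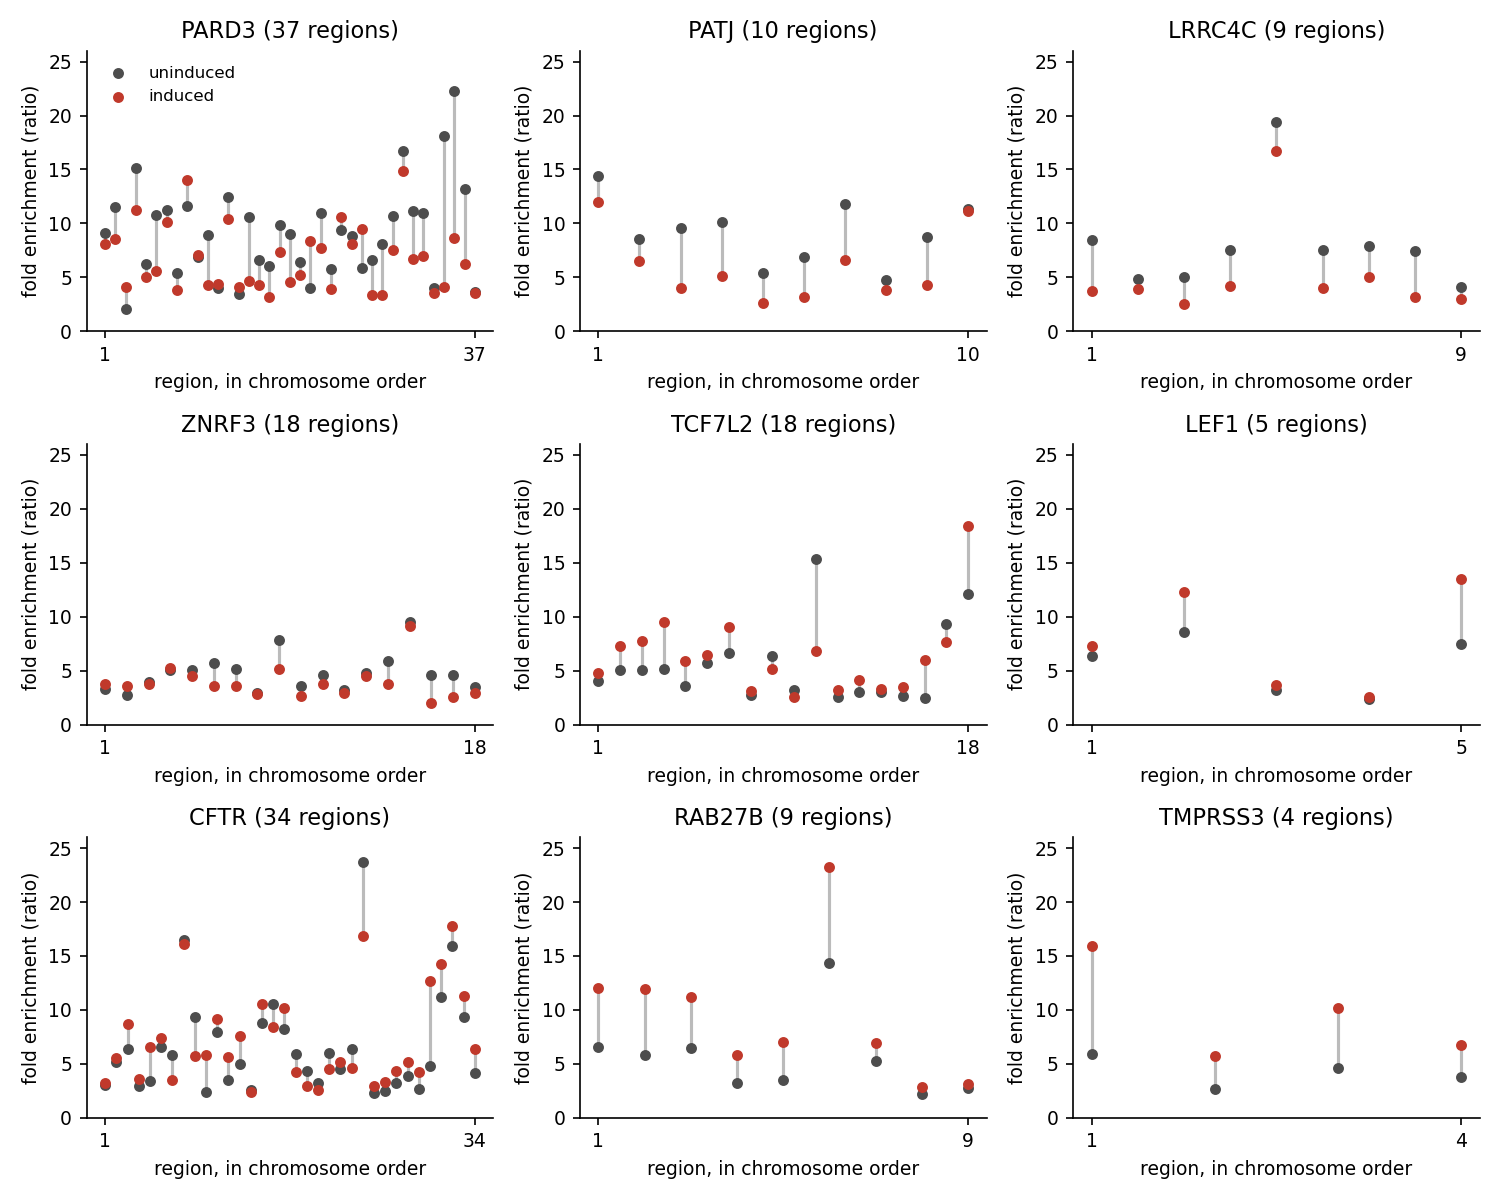
H3K27ac fold enrichment (ratio) of each Pol II-negative body region with an induced summit inside it, in chromosome order, for 9 host genes chosen after their values were seen; grey points are uninduced, red points induced, and a line joins the 2 values of a region. PATJ and LRRC4C are lower at every region shown, and LEF1, RAB27B and TMPRSS3 higher at every one.

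Gene lists were read against all Pol II-negative body regions with an induced summit inside, of which 5.72% fell and 3.98% rose, and against the 29.1% of all genes that were hosts. Host shares were not adjusted for gene length, and longer genes were hosts more often, 51.1% of those from 50 to 100 kb and 68.0% of those from 100 to 250 kb. Of 40 genes on the list of Wnt components and TCF targets, 19 were hosts, with 112 comparable regions, of which 9 fell (8.04%, interval 4.29 to 14.6%) and 4 rose (3.57%), both near the shares over all regions. ZNRF3, a ubiquitin ligase that removes Frizzled receptors and is itself a Wnt target, was lower at 15 of 18 regions, of which 2 fell, with a median fold of 4.56 over its 20 regions and 3.65 induced. TCF7L2 itself was higher at 14 of 18 regions. Its strongest region, chr10:113004532-113008439, was 1 of the 4 lower ones, going from 15.3 to 6.82, and fell, while chr10:113107470-113109709 went from 12.1 to 18.4 and overlapped Pol II after induction. The deposited lists do not separate the transgene from the endogenous gene. LEF1, a partner of β-catenin of the same family, was higher at 5 of 5 regions, the strongest going from 8.56 to 12.3, with none past 25 points. LGR4, an R-spondin receptor, was higher at 5 of 5, with 2 rises and its strongest region going from 10.9 to 20.6. LGR5, the R-spondin receptor of intestinal stem cells, was lower at 4 of 6. Its strongest region, chr12:71471282-71472574, went from 7.75 to 4.66, a place lower by 21.5 points, and its neighbour chr12:71472672-71473690 fell, from 4.55 to 2.36. RNF43, the ligase related to ZNRF3, held 1 region, at 3.04 and 2.98, 237 bp from uninduced Pol II. AXIN2 and MYC held none. GUCY2C, the guanylate cyclase receptor of the gut, had no Pol II at either end in either list and held 1, chr12:14628145-14631093, at 12.2 and 10.98. In EPHB2, a receptor that positions crypt cells, the strongest region stood at 17.5 and 24.3. The strongest region of the Wnt co-receptor LRP5 rose by paired region, from 11.9 to 34.3, but stood at 11.03 by the summit inside.

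Of 40 cell junction and polarity genes, with a median length of 63.8 kb against 24.2 kb for all genes, 29 were hosts, and 17 of their 173 comparable regions fell (9.83%, interval 6.23 to 15.2%) while 6 rose. PARD3 and PATJ gave 14 of the 17. The strongest region of the list, in the vinculin gene VCL, stood at 28.6 and 27.7, and those of PKP2, a desmosomal plakophilin, and TJP1, the tight junction protein ZO-1, at 22.4 and 24.7 and at 24.8 and 20.004. For CDH1, the gene for E-cadherin, 5 of 6 comparable regions were higher, none past 25 points. Among intestinal transcription factors 22 of 35 genes were hosts, and 1 of 115 regions fell (0.870%, interval 0.154 to 4.76%) while 4 rose. The strongest, in the nuclear receptor PPARG, stood at 21.0 and 15.99, and that of the epithelial factor GRHL2 at 17 and 12.48.

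Receptor kinase and ERK signalling genes (22 hosts of 39) had 1 fall (1.01%) and 6 rises (6.06%) in 99 regions, against 5.72% and 3.98% over all regions. INSR, the insulin receptor, gave 3 of the 6 rises and had a higher fold at 6 of 7 regions. FGFR2 had a higher fold at 5 of 5, none past 25 points. Its region chr10:121545109-121545614, at folds of 3.72 and 3.78, had a lower place after induction. The strongest region of MET, the receptor of hepatocyte growth factor, stood at 13.5 and 15.9, that of the adaptor GAB2 at 11.3 and 10.3, and that of EGFR at 15.4 and 9.30. TGF-β and BMP genes (14 of 30) had 5 falls (5.68%) and 2 rises in 88 regions, near the shares over all regions, and ACVR1B, an activin receptor, fell at both of its regions, from 15.6 to 7.05 and from 6.52 to 2.80. Chromatin and transcription regulators (31 of 40), the list with the longest genes at a median of 136.8 kb, had 8 falls (5.10%) and 3 rises in 157 regions. Among these, the strongest region of MED13L, a subunit of the Mediator kinase module, fell from 22.7 to 7.42, and the remodeller subunit ARID1B had 3 falls in 18 regions. The strongest region of the methyltransferase KMT2A stood at 16.4 and 13.8.

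Colonocyte differentiation genes (15 of 40) had 5 falls (8.33%, interval 3.61 to 18.1%) and 4 rises (6.67%) in 60 regions, against 5.72% and 3.98% over all regions, 2 of the rises in CDH17, the liver-intestine cadherin. Their strongest regions were in MYO5B, a motor of apical traffic, at 21.9 and 24.3, in PLS1, a brush border actin bundler, at 19.7 and 17.5, and in EPS8, an actin capper of microvilli, at 16.96 and 13.97. Goblet and secretory genes (4 of 25) had 4 rises (30.8%) and no fall in 13 regions, and TMPRSS3 gave all 4 rises. Cell cycle and MYC-linked genes (9 of 30) had 2 falls and 2 rises in 20 regions, and the region of CCND2, cyclin D2, fell from 12.8 to 5.13. None of 8 regions in interferon and inflammation genes (5 of 25), none of 5 in genes of doxycycline and mitochondrial stress (3 of 20) and none of 3 in housekeeping genes (3 of 20) passed 25 points. Immune, stromal and endothelial markers (4 of 20) had 1 fall and 1 rise in 11 regions, and liver, muscle and neuron markers (10 of 24) 4 falls and no rise in 55, including the NTM region above. A region inside a gene need not act on that gene.

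Pol II appeared at few Pol II-negative body regions after induction. An induced Pol II region overlapped 314 of them (1.67%, interval 1.49 to 1.86%), against a background of 2.1% of all shared regions without uninduced Pol II and 2.41% (2.18 to 2.65%) of the intergenic ones. Intragenic regions with uninduced Pol II overlapped an induced Pol II region in 75.4% of cases. The share was larger at higher H3K27ac places, where regions were also wider. It was 0.609% at places under 25, 3.01% between 50 and 75 and 8.86% (interval 4.36 to 17.2%) above 90. Most of these Pol II regions were weak: their median −log10 q was 3.64, 65 of 314 had 5 or more, and 35 of the Pol II-negative body regions lay within 1 kb of an uninduced Pol II region. The 314 lay in 297 genes and had a median H3K27ac fold of 8.77 uninduced and 12.1 induced. By paired region 21 of them rose (6.69%, near the 7.77% of all Pol II-negative body regions) and 1 fell (0.318%, against 6.77%).

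The highest induced Pol II value, a −log10 q of 67.3, was at a region of SLC39A13, a zinc transporter gene, that lay 170 bp from an uninduced Pol II region. The next were farther from earlier Pol II. In SLC9A3, the brush border sodium and proton exchanger, chr5:518440-519575 had a −log10 q of 10.5 for Pol II, with H3K27ac folds of 4.85 and 8.42, and lay 34285 bp from uninduced Pol II. DISC1, a scaffold known from neurons, held chr1:231776908-231779503, with a Pol II −log10 q of 9.85 and H3K27ac folds of 15.2 and 19.8, at 147290 bp. FAAH, which breaks down fatty acid amides, KRT7, a simple epithelial keratin, and SH2D3C, an adaptor protein, each held a region with a Pol II −log10 q of 8.51. Their H3K27ac folds were 5.56 and 7.73, 9.22 and 10.9, and 8.77 and 14.4. All 6 had a higher H3K27ac fold after induction, and none of them rose by over 25 points. Over all 18205 comparable Pol II-negative body regions, 51.6% had a higher fold. The uninduced Pol II list was the longer of the pair, at 57247 regions against 50665.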

How the data were processed

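Chromatin immunoprecipitation and sequencing of H3K27ac and Pol II in uninduced and induced DLD1 cells was used, with 8 ChIP samples. The 2 inputs entered through the authors' peak calls at most, and the 24 RNA-seq samples were not used here. Libraries were single reads of 75 bp at a depth of 40 to 55 M per sample, per the labels' protocols. Per the submitters' processing notes, tools included BWA 0.7.17-r1188, SAMtools 1.10 and MACS2 2.1.1.20160309. For their order, settings and any pooling of reads, the sources used here give nothing. The authors deposited 1 narrowPeak list per antibody and condition, holding 177089 (uninduced) and 180063 (induced) H3K27ac summits and 109014 and 94939 Pol II summits. Each summit carries 2 deposited values used here, the enrichment as a ratio to the local background that the peak caller estimated, and a −log10 q. The fold depends on depth and input, so regions were ranked within a list.

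Summits of 1 region were collapsed to the highest fold and −log10 q, on the 22 autosomes and X. Coordinates are 1-based on GRCh38, since chromosome 17 regions reach 83228308. Overlap means at least 1 bp. An uninduced region was paired with the overlapping induced region of highest fold. Genes were the 19974 protein-coding genes of RefSeq GRCh38.p14, and strand, from the start windows, was known for 15812. Starts and hairpins were credited to RefSeq of that build. Python 3.11.15, pandas 2.3.3 and SciPy 1.17.1 were used, the steps were tested on simulated regions, and bedtools 2.31.1 gave the same number of regions, 18853.

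The regions and the 14 gene lists were chosen with earlier results of these data known. The genes named are, by rule, 1 region per gene: the 8 highest by uninduced −log10 q, the 6 largest falls and rises among places of at least 50, the 5 genes with the most regions, up to 3 genes per list, the 6 with the highest induced Pol II −log10 q, and AXIN2, RNF43, LGR5, TCF7L2, MYC and GUCY2C. Some genes that the rule gives are not reported here. Others named were chosen after their values were seen. The planned motif search at summits and intron or exon annotation need a genome and were not done. Alternatives covered thresholds, overlap, windows, width and ranking.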

Additional observations from a re-analysis of the deposited data

How the results depend on the processing

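No paired analysis was possible because the samples of a group have 1 peak list between them, and leaving out a replicate could not be done for the same reason. The number of regions stayed within 1.5 times of 18853 under every alternative tried, from 13426 with H3K27ac −log10 q of at least 5 to 20266 with Pol II −log10 q of at least 5. The number of clusters was 1323 at a distance of 5 kb. The share with induced Pol II was 2.12% with H3K27ac −log10 q of at least 5, 0.997% with Pol II −log10 q of at least 5, 2.00% with Pol II within 1 kb as overlap, 1.40% with a width limit of 3000 bp and 2.14% with Pol II lists of equal length. The share that fell was 5.28% with at least 50% of the region shared, 9.46% with a 3000 bp limit, 5.35% ranked by −log10 q, and, chosen after seeing the data, 5.46% in pairs that overlap no other region and 5.72% by summits inside. The share that rose was 7.12% with H3K27ac −log10 q of at least 5, 7.25% with 50% shared, 6.88% with Pol II within 1 kb, 7.18% with a 5 kb window at gene ends, 9.87% with the 3000 bp limit, 6.91% ranked by −log10 q, 3.58% in pairs that overlap no other region and 3.98% by summits inside. With Pol II −log10 q of at least 5, 74.3% and 72.8% of hosts had uninduced and induced Pol II at an end. Using the ends of every RefSeq gene, also chosen after seeing the data, left 17934 regions. Except for fewer regions or shorter lists by construction, the cause was not tested. Of 713 values for 75 named regions, 699 kept their call, 12 lost or gained it and 2 turned: the LRP5 region's place difference was −5.12 when paired by largest overlap and −2.67 by summits inside. Depth per list is unknown beyond the reads stated, so a missing Pol II region is not an absence of Pol II.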
